A study of Mus musculus with 58 samples.

Results

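The 51 ribosome biogenesis factors, nucleolar proteins and RNA polymerase I subunits, were followed in bulk RNA-seq of whole mouse liver. They were taken by symbol from a list of names, and 51 of 51 were found among the 24537 genes of the table. All mice were male C57BL6/J. Each had received an adeno-associated virus, AAV8, carrying Myc or the red fluorescent protein mApple behind the TBG promoter, which is active in hepatocytes. Ruxolitinib, an inhibitor of JAK family kinases, was gavaged at 45 mg/kg 2 times a day for 30 days with breaks at weekends, and the other mice received vehicle. The 6 groups were old Myc ruxolitinib (14 livers), old Myc vehicle (11), old mApple ruxolitinib (9), old mApple vehicle (8), young Myc ruxolitinib (10) and young mApple vehicle (6). Old mice were 25 months of age in the first sequencing batch (18 libraries) and 24 months in the second (40 libraries), and young mice were 4 months of age and all in the second. The second batch held 10, 5, 5, 4, 10 and 6 livers of the groups in the order above. Every mouse carried a vector, so no group is an untreated liver, and the counts cannot tell Myc of the vector from Myc of the mouse. In young livers Myc and ruxolitinib were given together, so their effects there cannot be told apart.

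Ribosomes begin in the nucleolus, where RNA polymerase I transcribes the long precursor of most ribosomal RNA. Small nucleolar ribonucleoproteins (snoRNPs) then guide its methylation and pseudouridylation, and large assemblies of processing factors fold, cut and export the small and the large subunit. Genes for these factors are among the best known targets of Myc, a transcription factor that binds the E-box CACGTG with its partner Max, and hepatocytes raise them when they grow. The members fall into 6 roles: RNA polymerase I and its cofactor (4 genes), abundant nucleolar proteins (5), the box C/D snoRNP (4), the box H/ACA snoRNP (4), small subunit factors (15) and large subunit factors (19).

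The start-site windows of 44 members were matched by symbol in RefSeq (build GRCm38.p6), each running from 250 bases before to 50 after a gene's start. The sequence searched was CACGTG, which reads the same on both strands. It was present in 8 of the 44 members (18.2%), namely Grwd1, Imp4, Nle1, Nop2, Pes1, Tsr1, Utp20 and Wdr43, and in 11.6% of the 10425 tested genes and 8.09% of all 27025 genes with such a window. The variant CACGCG, searched on both strands, was in 31.8% of the members and 19.1% of the tested genes. The windows of 4 E-box members are printed 5′ to 3′ with CACGTG in capitals: the 3 with the largest Myc difference in old vehicle livers and the 1 with the smallest, so that both ends of the response can be read beside the motif.
Nle1, chr11:82908346-82908645, minus strand: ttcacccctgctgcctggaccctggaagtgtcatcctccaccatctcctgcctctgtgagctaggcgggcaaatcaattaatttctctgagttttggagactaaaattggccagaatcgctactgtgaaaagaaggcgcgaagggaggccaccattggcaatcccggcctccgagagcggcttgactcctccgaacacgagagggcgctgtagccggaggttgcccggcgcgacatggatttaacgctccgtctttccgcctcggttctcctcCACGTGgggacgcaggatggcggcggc
Nop2, chr6:125131633-125131932, plus strand: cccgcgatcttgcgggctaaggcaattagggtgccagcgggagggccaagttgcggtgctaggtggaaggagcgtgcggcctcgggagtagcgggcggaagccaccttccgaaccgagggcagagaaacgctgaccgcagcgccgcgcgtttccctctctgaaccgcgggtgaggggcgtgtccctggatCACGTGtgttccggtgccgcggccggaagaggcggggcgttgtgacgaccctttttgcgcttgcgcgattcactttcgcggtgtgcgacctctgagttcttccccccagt
Wdr43, chr17:71615965-71616264, plus strand: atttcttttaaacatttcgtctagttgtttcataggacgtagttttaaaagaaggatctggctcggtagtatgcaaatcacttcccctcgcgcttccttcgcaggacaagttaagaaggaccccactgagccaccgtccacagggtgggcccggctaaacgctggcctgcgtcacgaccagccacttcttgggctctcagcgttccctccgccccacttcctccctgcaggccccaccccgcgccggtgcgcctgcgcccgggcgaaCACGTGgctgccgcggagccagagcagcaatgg
Utp20, chr10:88826765-88827064, minus strand: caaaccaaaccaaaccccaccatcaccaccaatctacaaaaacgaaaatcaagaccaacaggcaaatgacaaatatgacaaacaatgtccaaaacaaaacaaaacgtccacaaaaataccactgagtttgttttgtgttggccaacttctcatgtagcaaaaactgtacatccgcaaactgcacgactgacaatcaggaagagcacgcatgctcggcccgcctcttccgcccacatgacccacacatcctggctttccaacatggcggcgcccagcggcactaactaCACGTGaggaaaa
The first base of CACGTG stood at +24 in Nle1, -60 in Nop2, +18 in Wdr43 and +38 in Utp20, counted from the start at +1. Nle1, Nop2 and Wdr43 differed between Myc and mApple vehicle livers by log2 values of 1.24, 0.75 and 0.74, while Utp20, with the same 6 bases, differed by 0.12. Of the 8 E-box members 5 passed the test in that comparison, and of the 36 matched members with no CACGTG in the window 26 did. Their median log2 differences were 0.58 and 0.51. A match of letters is a description and does not show binding.

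Levels are given as CPM, counts divided by the library size in M after TMM scaling in edgeR, and differences as log2 fold changes ± standard error from edgeR's quasi-likelihood test, called where the Benjamini-Hochberg adjusted p over all tested genes was under 0.05. Libraries held 10.68 to 40.98 M exon counts (median 14.59 M). The vector gene itself was checked first. Myc ran at 24.4 to 110.8 CPM (median 32.9) in old Myc ruxolitinib livers, 6.85 to 132.2 CPM (37.9) in old Myc vehicle livers and 36.1 to 61.5 CPM (50.9) in young Myc ruxolitinib livers. In mApple livers Myc was at 2.35 to 19.3 CPM (7.67) on ruxolitinib and 2.93 to 56.8 CPM (15.6) on vehicle in old mice, and at 4.23 to 22.4 CPM (8.28) in young mice. In old Myc livers the first batch had the higher Myc medians. They were 92.5 against 35.7 CPM on vehicle and 69.95 against 31.0 CPM on ruxolitinib. A pair of libraries went against their labels: library 870, labelled old Myc vehicle, had 6.85 CPM of Myc, and library 855, labelled old mApple vehicle, had 56.8 CPM. In library 870, 33 of the 51 members were at or below the highest old mApple vehicle library, and 25 were below every other old Myc vehicle library. In library 855, 49 of the 51 were at or below the highest of the other old mApple vehicle libraries. Such counts were not made over all genes, so they cannot be read as particular to the members. Libraries 860, 861 and 864, all old on ruxolitinib, stood apart in macrophage markers, which summed to 1185 to 5192 CPM in them against group medians of 253 to 500.1 CPM, and libraries 861 and 865 in stellate markers (1049 and 1058 CPM, against group medians of 274.5 to 400.2). Bile duct markers summed to 319.8 CPM in 861, 886.3 CPM in 864 and 446.8 CPM in 865, against group medians of 66.1 to 108.4. The 9 hepatocyte markers were present in every group and summed to 66210 to 238900 CPM.

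In whole liver fewer cells of a type and less RNA per cell cannot be told apart, which holds for every level below. Per kilobase of exon, the members differed widely in old mApple vehicle livers. Npm1 stood first with a median of 114.5 CPM per kilobase, followed by Nop10 (41.6), Rrp1 (32.8), Ncl (23.9) and Fbl (23.02). Rrp12 (1.91), Nle1 (1.71) and Rrp1b (1.71) stood last. Nle1 and Rrp1b, neighbours in this order, differed by less than the spread between libraries, whereas every Npm1 value per kilobase was above every Nop10 value.

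Myc livers had more RNA of most ribosome biogenesis factors than mApple livers in each of the 3 comparisons, which share no library. In old livers on vehicle 36 of 51 members were higher and 0 lower, where 10.8% of all genes tested were called higher. In old livers on ruxolitinib 41 were higher and 0 lower, against 8.4% of all genes, and in young livers, Myc with ruxolitinib over mApple with vehicle, 45 were higher and 0 lower, against 13.5%. The median log2 fold change of the members was 0.51, 0.44 and 0.66 in these 3 comparisons, where the median of all genes tested was -0.02, 0.01 and -0.01. All 51 estimates were above 0 in each, from 0.12 (Utp20) to 1.26 (Nhp2) in old vehicle livers, 0.06 (Tsr1) to 1.14 (Nop56) in old ruxolitinib livers and 0.10 (Rrp1) to 1.59 (Nle1) in young livers.

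**Figure D1:**
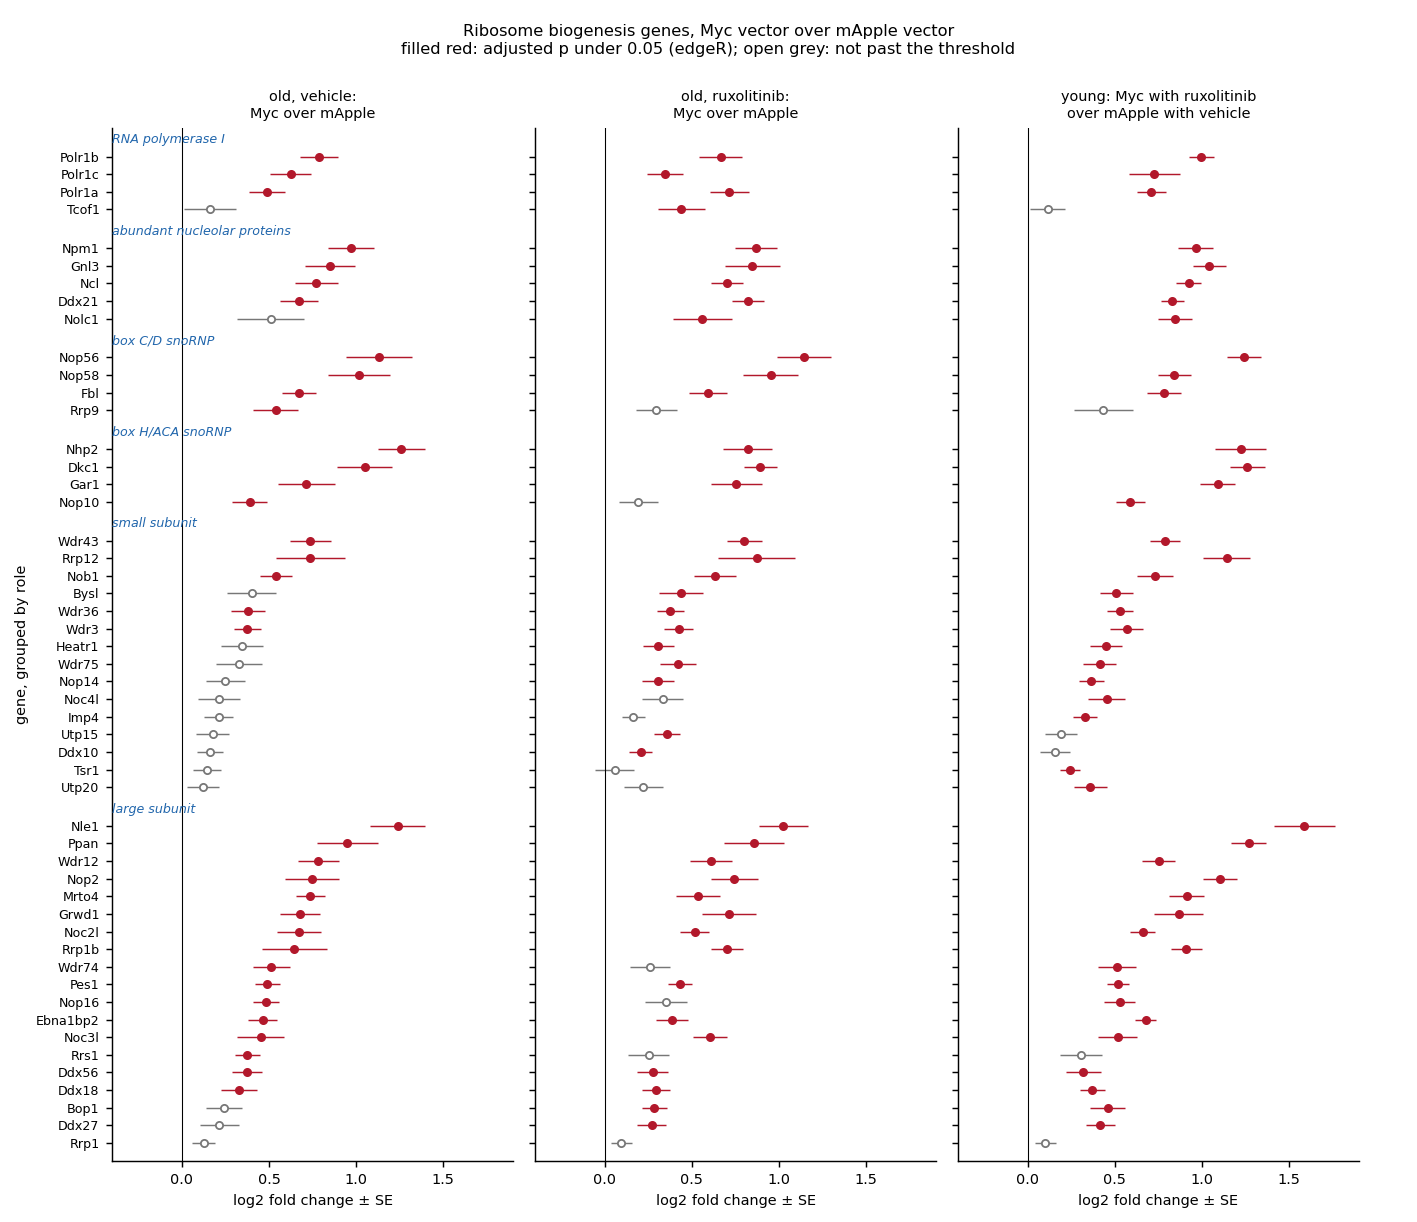
Log2 fold change ± SE (horizontal axis) of each of the 51 genes, grouped by role (vertical axis), for Myc over mApple in old vehicle livers, in old ruxolitinib livers and, with ruxolitinib given beside Myc, in young livers. Filled red points passed the edgeR threshold (36, 41 and 45 of 51), open grey points did not, and all points lie right of 0.

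Most members were called in each comparison, so the calls had to overlap. Of the members, 31 were called in all 3 comparisons, 50 in at least 1, and Rrp1 in none. The calls of old vehicle and old ruxolitinib livers had 31 members in common, which is 86.1% of the vehicle calls and 75.6% of the ruxolitinib calls. Nop10, Nop16, Rrp9, Rrs1 and Wdr74 passed on vehicle and not on ruxolitinib, and 10 others, among them Bop1, Heatr1, Nolc1 and Tcof1, passed on ruxolitinib and not on vehicle. The difference between these effects, tested as vector by drug, was called for 0 members and 0.0% of all genes. Imp4, Noc4l, Tsr1 and Utp20 were called in young livers alone of the 3.

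**Figure D2:**
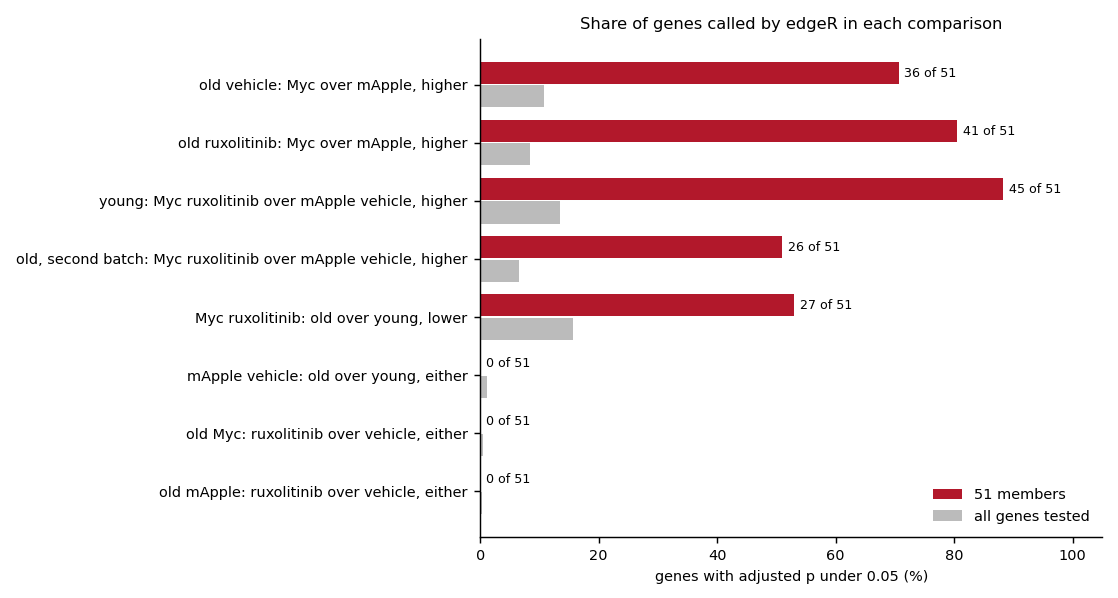
Share of genes called by edgeR (horizontal axis, %) in 8 comparisons (vertical axis), with the 51 members in red above all genes tested in grey. The members' share reaches 88.2% in young livers, where 13.5% of all genes were called higher, and is 0 of 51 in both ruxolitinib comparisons and in the mApple age comparison.

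Another reading is whether the libraries separate. For the old pairs both batches were pooled here with no allowance for batch level, so an overlap can mix vector with batch. Ncl on vehicle overlapped, while its second-batch libraries ran at 239.5 to 314.7 CPM with Myc and 163.8 to 179.3 CPM with mApple. The same limit holds for the old ranges of single members below. Every Myc library lay above every mApple library for 10 members in old vehicle livers (0.908% of all genes), for 6 in old ruxolitinib livers (0.207%) and for 35 in young livers (4.75%). The 10 were Mrto4, Nhp2, Nle1, Nob1, Nop16, Nop58, Pes1, Rrs1, Wdr12 and Wdr43, and the 6 were Ddx21, Dkc1, Ncl, Npm1, Polr1a and Wdr43, so that Wdr43 alone was in both. With library 870 set aside, the count in old vehicle livers was 16. Setting a library aside can only keep or raise such a count. The share of all genes was not counted there, so the rise cannot be read as particular to the members. The test count in old vehicle livers was 41 without library 870, 35 without 855 and 38 without both. Over all genes 3085 of 13419, 1931 of 13666 and 2530 of 13585 were called in these fits, in either direction. With every library 2544 of 13547 were.

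RNA polymerase I was represented by its largest subunit Polr1a, its second subunit Polr1b, Polr1c, which RNA polymerase III also contains, and Tcof1 (treacle), a cofactor of ribosomal DNA transcription. All 3 subunits were called higher in each of the 3 comparisons. Polr1a (chr6:71909053-71979360, plus strand; mm10 here and below, with values summed over exons) is the catalytic subunit. Polr1a ran at 35.5 to 72.5 CPM (median 40) in old Myc livers on ruxolitinib, against 21.04 to 32.2 CPM (median 27.1) in old mApple livers on ruxolitinib. On vehicle, Polr1a was at 23.1 to 46.5 CPM (median 40.1) in old Myc livers, against 21.6 to 32.2 CPM (median 27.7) in old mApple livers. In young livers, Polr1a was at 39.8 to 52.6 CPM (median 42.3) with Myc and ruxolitinib, against 22.3 to 30.6 CPM (median 26.9) with mApple and vehicle. For Polr1a, every Myc library lay above every mApple library in the old ruxolitinib and young pairs, and the ranges overlapped in the old vehicle pair, with log2 fold changes of 0.71 ± 0.11 (adjusted p = 2.44e-04) on ruxolitinib, 0.49 ± 0.10 (adjusted p = 0.00241) on vehicle and 0.71 ± 0.08 (adjusted p = 4.59e-06) in young livers. Polr1b (chr2:129100996-129126595, plus strand) had the largest difference of the role in old vehicle livers. Polr1b ran at 14.5 to 39.3 CPM (median 29.01) in old Myc livers on ruxolitinib, against 12.04 to 19.8 CPM (median 17.2) in old mApple livers on ruxolitinib. On vehicle, Polr1b was at 19.8 to 38.4 CPM (median 30.2) in old Myc livers, against 12.9 to 21.98 CPM (median 17.1) in old mApple livers. In young livers, Polr1b was at 34.9 to 41.96 CPM (median 37.5) with Myc and ruxolitinib, against 16 to 20.5 CPM (median 20.2) with mApple and vehicle. For Polr1b, every Myc library lay above every mApple library in the young pair, and the ranges overlapped in the old ruxolitinib and old vehicle pairs, with log2 fold changes of 0.67 ± 0.12 (adjusted p = 9.78e-04) on ruxolitinib, 0.79 ± 0.11 (adjusted p = 8.61e-05) on vehicle and 0.997 ± 0.07 (adjusted p = 1.40e-08) in young livers. Tcof1 (chr18:60813756-60848964, minus strand) had the smallest there. Tcof1 ran at 7.59 to 34.7 CPM (median 10.4) in old Myc livers on ruxolitinib, against 7.41 to 16.1 CPM (median 9.73) in old mApple livers on ruxolitinib. On vehicle, Tcof1 was at 8.57 to 25.2 CPM (median 11.8) in old Myc livers, against 7.33 to 14.7 CPM (median 12.4) in old mApple livers. In young livers, Tcof1 was at 8.27 to 11.5 CPM (median 10.2) with Myc and ruxolitinib, against 7.69 to 11.4 CPM (median 9.05) with mApple and vehicle. The Myc and mApple ranges of Tcof1 overlapped in all 3 pairs, with log2 fold changes of 0.44 ± 0.13 (adjusted p = 0.029) on ruxolitinib, 0.16 ± 0.15 (adjusted p = 0.487) on vehicle and 0.12 ± 0.10 (adjusted p = 0.435) in young livers. Of the 3 comparisons Tcof1 passed in old ruxolitinib livers alone. In the first batch there, Tcof1 was at 18.16 to 34.69 CPM with Myc and 10.68 to 16.06 CPM with mApple. The highest Myc values were in libraries 860 (34.69 CPM) and 861 (26.59 CPM). In the second batch Tcof1 was at 7.59 to 11.35 CPM with Myc and 7.41 to 9.73 CPM with mApple. Its old mApple vehicle libraries lay at 13.6 to 14.65 CPM in the first batch and 7.33 to 11.25 CPM in the second. The pooled medians mix these levels. Polr1c differed by 0.35 ± 0.10 in old ruxolitinib livers, 0.62 ± 0.12 in old vehicle livers and 0.73 ± 0.15 in young livers.

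Of the abundant nucleolar proteins 5 of 5 were called higher in old ruxolitinib livers and in young livers, and 4 of 5 in old vehicle livers. Npm1, nucleophosmin, is a histone and ribosome chaperone of the nucleolus (chr11:33152498-33163206, minus strand). Npm1 ran at 204 to 456 CPM (median 268) in old Myc livers on ruxolitinib, against 129 to 179 CPM (median 159.6) in old mApple livers on ruxolitinib. On vehicle, Npm1 was at 193 to 534 CPM (median 268) in old Myc livers, against 125 to 199 CPM (median 161) in old mApple livers. In young livers, Npm1 was at 247 to 346 CPM (median 296) with Myc and ruxolitinib, against 131 to 201 CPM (median 139) with mApple and vehicle. For Npm1, every Myc library lay above every mApple library in the old ruxolitinib and young pairs, and the ranges overlapped in the old vehicle pair, with log2 fold changes of 0.87 ± 0.12 (adjusted p = 8.01e-05) on ruxolitinib, 0.97 ± 0.13 (adjusted p = 7.93e-05) on vehicle and 0.96 ± 0.10 (adjusted p = 1.43e-06) in young livers. Ncl, nucleolin, binds nascent ribosomal RNA (chr1:86344719-86359455, minus strand). Ncl ran at 238 to 492.9 CPM (median 282) in old Myc livers on ruxolitinib, against 167 to 236 CPM (median 183) in old mApple livers on ruxolitinib. On vehicle, Ncl was at 231 to 579 CPM (median 315) in old Myc livers, against 164 to 262 CPM (median 197) in old mApple livers. In young livers, Ncl was at 314 to 420.1 CPM (median 342) with Myc and ruxolitinib, against 163 to 198 CPM (median 186) with mApple and vehicle. For Ncl, every Myc library lay above every mApple library in the old ruxolitinib and young pairs, and the ranges overlapped in the old vehicle pair, with log2 fold changes of 0.70 ± 0.09 (adjusted p = 4.40e-05) on ruxolitinib, 0.77 ± 0.12 (adjusted p = 3.09e-04) on vehicle and 0.93 ± 0.07 (adjusted p = 4.33e-08) in young livers. Nolc1, a chaperone of snoRNPs (chr19:46075847-46085543, plus strand), had the smallest difference of the role in old vehicle livers. Nolc1 ran at 19.9 to 83.5 CPM (median 37.7) in old Myc livers on ruxolitinib, against 15.9 to 60.5 CPM (median 28.9) in old mApple livers on ruxolitinib. On vehicle, Nolc1 was at 28.99 to 140.1 CPM (median 40.03) in old Myc livers, against 17.9 to 62.8 CPM (median 29.1) in old mApple livers. In young livers, Nolc1 was at 38.7 to 60.96 CPM (median 52.6) with Myc and ruxolitinib, against 22.7 to 34.5 CPM (median 29.8) with mApple and vehicle. For Nolc1, every Myc library lay above every mApple library in the young pair, and the ranges overlapped in the old ruxolitinib and old vehicle pairs, with log2 fold changes of 0.56 ± 0.17 (adjusted p = 0.028) on ruxolitinib, 0.51 ± 0.19 (adjusted p = 0.069) on vehicle and 0.85 ± 0.10 (adjusted p = 3.96e-06) in young livers. Nolc1 on vehicle missed the threshold. The RNA helicase Ddx21 differed by 0.82 ± 0.09, 0.67 ± 0.11 and 0.83 ± 0.07 in old ruxolitinib, old vehicle and young livers, and Gnl3 (nucleostemin, a GTP-binding protein) by 0.85 ± 0.16, 0.85 ± 0.14 and 1.04 ± 0.09. Npm1 has many processed copies in the mouse genome, so reads it shares with them make its level uncertain.

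**Figure D3:**
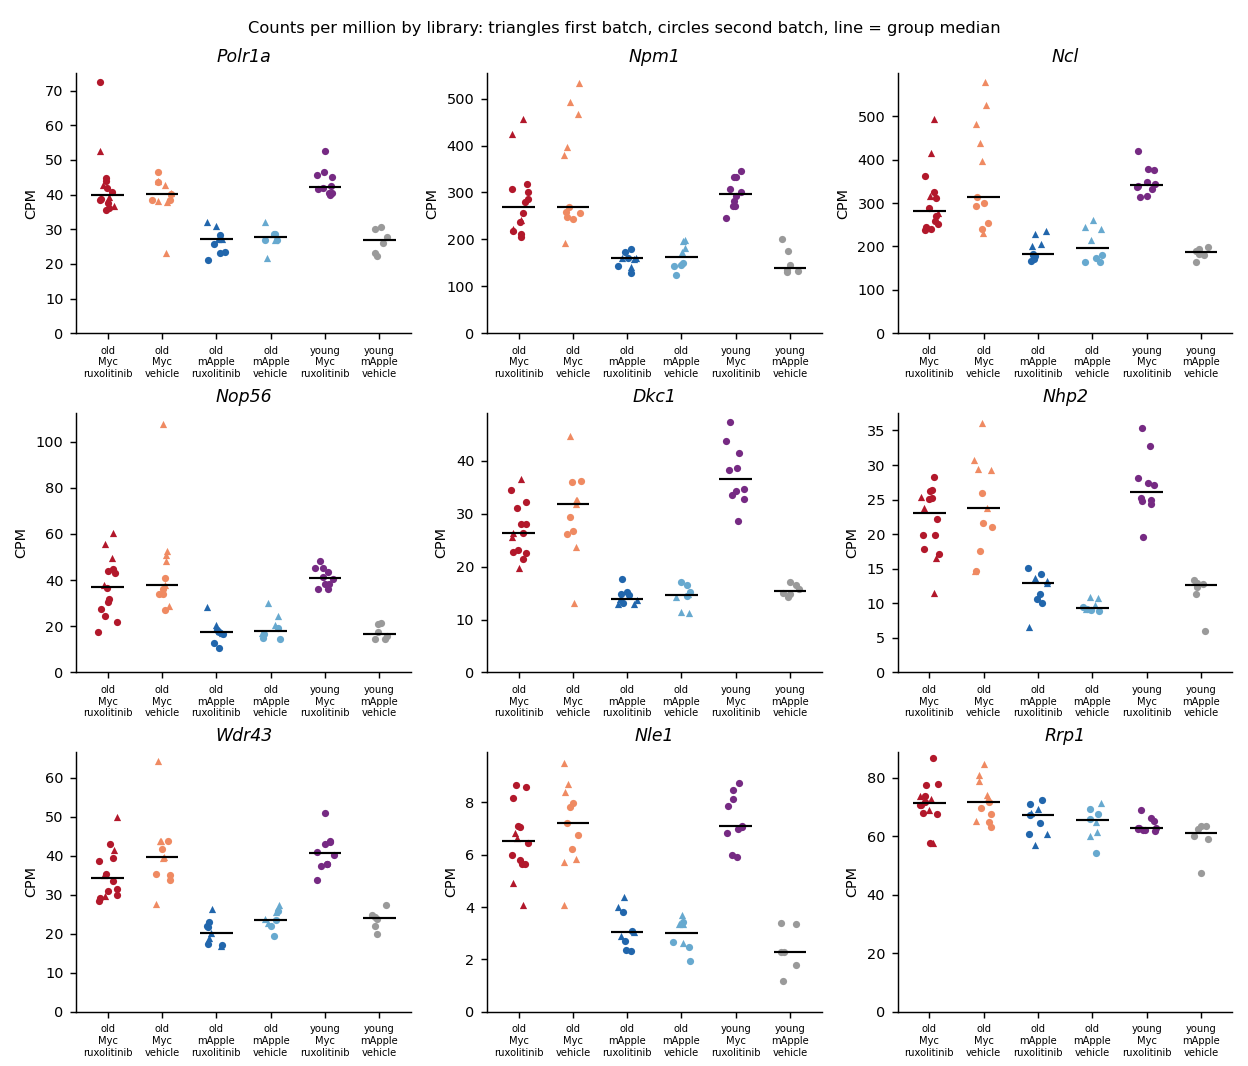
CPM of 9 members (vertical axes) in every library of the 6 groups (horizontal axes), with triangles for the first batch, circles for the second and a line at each group median. Npm1, Ncl and Wdr43 sit higher in the Myc groups than in the mApple groups, the lowest Polr1a and Dkc1 values of the old Myc vehicle group are those of library 870, and Rrp1 overlaps across all 6 groups.

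The box C/D snoRNP, which places methyl groups on ribosomal RNA, had 4 of 4 members called higher in old vehicle livers and 3 of 4 in old ruxolitinib and young livers. Its methyltransferase Fbl, fibrillarin (chr7:28169748-28179269, plus strand), was among them each time. Fbl ran at 20.8 to 47.5 CPM (median 34.96) in old Myc livers on ruxolitinib, against 17.1 to 28.1 CPM (median 26.1) in old mApple livers on ruxolitinib. On vehicle, Fbl was at 31.9 to 56.1 CPM (median 45.01) in old Myc livers, against 21.2 to 33 CPM (median 26.4) in old mApple livers. In young livers, Fbl was at 35.97 to 46.04 CPM (median 40.2) with Myc and ruxolitinib, against 15.4 to 27.6 CPM (median 24.5) with mApple and vehicle. For Fbl, every Myc library lay above every mApple library in the young pair, and the ranges overlapped in the old ruxolitinib and old vehicle pairs, with log2 fold changes of 0.59 ± 0.11 (adjusted p = 8.14e-04) on ruxolitinib, 0.67 ± 0.10 (adjusted p = 1.33e-04) on vehicle and 0.78 ± 0.10 (adjusted p = 7.83e-06) in young livers. The scaffold protein Nop56 (chr2:130274412-130279313, plus strand) had the largest difference of the role in all 3 comparisons. Nop56 ran at 17.4 to 60.2 CPM (median 37.1) in old Myc livers on ruxolitinib, against 10.8 to 28.5 CPM (median 17.3) in old mApple livers on ruxolitinib. On vehicle, Nop56 was at 27.1 to 108 CPM (median 38.01) in old Myc livers, against 14.4 to 30.1 CPM (median 18.1) in old mApple livers. In young livers, Nop56 was at 36.3 to 48.1 CPM (median 41.1) with Myc and ruxolitinib, against 14.4 to 21.6 CPM (median 16.8) with mApple and vehicle. For Nop56, every Myc library lay above every mApple library in the young pair, and the ranges overlapped in the old ruxolitinib and old vehicle pairs, with log2 fold changes of 1.14 ± 0.16 (adjusted p = 6.58e-05) on ruxolitinib, 1.13 ± 0.19 (adjusted p = 4.09e-04) on vehicle and 1.24 ± 0.10 (adjusted p = 4.83e-08) in young livers. Exons of Nop56 overlap those of Idh3b on the other strand, and the counting used no strand, so reads of the pair cannot be told apart. Nop58, the second scaffold protein, differed by 0.95 ± 0.16 in old ruxolitinib, 1.02 ± 0.18 in old vehicle and 0.84 ± 0.10 in young livers. Rrp9, a protein of the U3 snoRNP (chr9:106477309-106485415, plus strand), had the smallest difference in all 3. Rrp9 ran at 3.58 to 9.52 CPM (median 6.31) in old Myc livers on ruxolitinib, against 3.31 to 6.42 CPM (median 5.34) in old mApple livers on ruxolitinib. On vehicle, Rrp9 was at 4.37 to 8.66 CPM (median 7.25) in old Myc livers, against 2.79 to 7.06 CPM (median 4.67) in old mApple livers. In young livers, Rrp9 was at 5.41 to 8.83 CPM (median 7.46) with Myc and ruxolitinib, against 2.36 to 7.42 CPM (median 5.11) with mApple and vehicle. The Myc and mApple ranges of Rrp9 overlapped in all 3 pairs, with log2 fold changes of 0.30 ± 0.12 (adjusted p = 0.091) on ruxolitinib, 0.54 ± 0.13 (adjusted p = 0.00658) on vehicle and 0.43 ± 0.17 (adjusted p = 0.065) in young livers.

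The box H/ACA snoRNP, which turns uridine into pseudouridine, was called higher in 4 of 4 members in old vehicle and young livers and in 3 of 4 in old ruxolitinib livers. Nhp2 (chr11:51619773-51623714, plus strand), one of its RNA-binding core proteins, had the largest difference of all members in old vehicle livers. Nhp2 ran at 11.4 to 28.3 CPM (median 23.02) in old Myc livers on ruxolitinib, against 6.62 to 15.2 CPM (median 12.9) in old mApple livers on ruxolitinib. On vehicle, Nhp2 was at 14.7 to 36.1 CPM (median 23.8) in old Myc livers, against 8.82 to 10.9 CPM (median 9.28) in old mApple livers. In young livers, Nhp2 was at 19.6 to 35.3 CPM (median 26.1) with Myc and ruxolitinib, against 5.999 to 13.4 CPM (median 12.6) with mApple and vehicle. For Nhp2, every Myc library lay above every mApple library in the old vehicle and young pairs, and the ranges overlapped in the old ruxolitinib pair, with log2 fold changes of 0.82 ± 0.14 (adjusted p = 5.31e-04) on ruxolitinib, 1.26 ± 0.14 (adjusted p = 1.70e-05) on vehicle and 1.22 ± 0.14 (adjusted p = 4.69e-06) in young livers. Nhp2 shares exon sequence with Rmnd5b on the other strand. Nop10 (chr2:112261926-112262898, plus strand), the smallest core protein, had the smallest difference of the role in all 3 comparisons. Nop10 ran at 22.4 to 54.3 CPM (median 35.4) in old Myc livers on ruxolitinib, against 28.3 to 37.7 CPM (median 31.04) in old mApple livers on ruxolitinib. On vehicle, Nop10 was at 29.5 to 57.5 CPM (median 39.4) in old Myc livers, against 26.3 to 36.04 CPM (median 30.5) in old mApple livers. In young livers, Nop10 was at 38.99 to 52.02 CPM (median 48.8) with Myc and ruxolitinib, against 23.7 to 37.6 CPM (median 32.7) with mApple and vehicle. For Nop10, every Myc library lay above every mApple library in the young pair, and the ranges overlapped in the old ruxolitinib and old vehicle pairs, with log2 fold changes of 0.19 ± 0.11 (adjusted p = 0.263) on ruxolitinib, 0.39 ± 0.10 (adjusted p = 0.00962) on vehicle and 0.59 ± 0.08 (adjusted p = 3.35e-05) in young livers. Dkc1, dyskerin, the pseudouridine synthase, differed by 0.89 ± 0.10, 1.05 ± 0.16 and 1.26 ± 0.10 in old ruxolitinib, old vehicle and young livers, and Gar1 by 0.75 ± 0.15, 0.71 ± 0.16 and 1.09 ± 0.10.

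Small subunit factors were called higher in 5 of 15 cases in old vehicle livers, 11 of 15 in old ruxolitinib livers and 13 of 15 in young livers. The median log2 values over the 15 were 0.33, 0.36 and 0.45. Wdr43, a subunit of the UtpA complex that joins the nascent transcript (chr17:71616215-71659031, plus strand), had the largest difference of the role in old vehicle livers, where Rrp12 was close to it at 0.74. Wdr43 ran at 28.3 to 49.99 CPM (median 34.2) in old Myc livers on ruxolitinib, against 16.9 to 26.3 CPM (median 20.1) in old mApple livers on ruxolitinib. On vehicle, Wdr43 was at 27.7 to 64.2 CPM (median 39.7) in old Myc livers, against 19.5 to 27.4 CPM (median 23.6) in old mApple livers. In young livers, Wdr43 was at 33.8 to 51.03 CPM (median 40.6) with Myc and ruxolitinib, against 19.9 to 27.3 CPM (median 23.97) with mApple and vehicle. The Myc libraries of Wdr43 lay above every mApple library in all 3 pairs, with log2 fold changes of 0.80 ± 0.10 (adjusted p = 2.61e-05) on ruxolitinib, 0.74 ± 0.12 (adjusted p = 2.54e-04) on vehicle and 0.79 ± 0.09 (adjusted p = 2.20e-06) in young livers. Utp20, a very large scaffold of the processome (chr10:88746607-88826814, minus strand), had the smallest in old vehicle livers. Utp20 ran at 14.1 to 26.04 CPM (median 21.1) in old Myc livers on ruxolitinib, against 10.2 to 20.9 CPM (median 17.5) in old mApple livers on ruxolitinib. On vehicle, Utp20 was at 15.8 to 23.8 CPM (median 20.6) in old Myc livers, against 16.4 to 23.7 CPM (median 18.1) in old mApple livers. In young livers, Utp20 was at 21.4 to 31.5 CPM (median 25.9) with Myc and ruxolitinib, against 17.2 to 22.98 CPM (median 20.6) with mApple and vehicle. The Myc and mApple ranges of Utp20 overlapped in all 3 pairs, with log2 fold changes of 0.22 ± 0.11 (adjusted p = 0.182) on ruxolitinib, 0.12 ± 0.09 (adjusted p = 0.37) on vehicle and 0.36 ± 0.09 (adjusted p = 0.00792) in young livers. Rrp12, an export factor, and Nob1, the nuclease that makes the final cut of small subunit RNA, were called in all 3 comparisons. Rrp12 differed by 0.87 ± 0.22, 0.74 ± 0.20 and 1.14 ± 0.13 in old ruxolitinib, old vehicle and young livers, the largest value of the role in old ruxolitinib and young livers, and Nob1 by 0.63 ± 0.12, 0.54 ± 0.09 and 0.73 ± 0.10. The other two called in all 3 were Wdr3 and Wdr36 of the UtpB complex, at 0.38 and 0.38 in old vehicle livers. The UtpA subunits Heatr1, Utp15 and Wdr75, the processome protein Nop14, the helicase Ddx10 and the late factor Bysl were called in old ruxolitinib and not in old vehicle livers, where their log2 values were Heatr1 (0.34), Utp15 (0.18), Wdr75 (0.33), Nop14 (0.25), Ddx10 (0.16) and Bysl (0.40). On ruxolitinib they were Heatr1 (0.31), Utp15 (0.36), Wdr75 (0.42), Nop14 (0.30), Ddx10 (0.21) and Bysl (0.44). The Ddx10 call on ruxolitinib was lost in 14 of the 23 fits that left out 1 library. Imp4 of the U3 complex, Noc4l and the late cytoplasmic factor Tsr1 had young log2 values of 0.33, 0.45 and 0.24.

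Large subunit factors were called higher in 16 of 19 cases in old vehicle livers, 15 of 19 in old ruxolitinib livers and 17 of 19 in young livers, with median log2 values of 0.49, 0.43 and 0.53. Nle1, notchless, which takes part in the release of factors from the pre-large subunit (chr11:82900768-82908395, minus strand), had the largest difference of the role in all 3 comparisons. Nle1 ran at 4.07 to 8.68 CPM (median 6.54) in old Myc livers on ruxolitinib, against 2.31 to 4.38 CPM (median 3.06) in old mApple livers on ruxolitinib. On vehicle, Nle1 was at 4.09 to 9.51 CPM (median 7.21) in old Myc livers, against 1.93 to 3.70 CPM (median 3.004) in old mApple livers. In young livers, Nle1 was at 5.93 to 8.73 CPM (median 7.09) with Myc and ruxolitinib, against 1.18 to 3.41 CPM (median 2.29) with mApple and vehicle. For Nle1, every Myc library lay above every mApple library in the old vehicle and young pairs, and the ranges overlapped in the old ruxolitinib pair, with log2 fold changes of 1.02 ± 0.14 (adjusted p = 7.01e-05) on ruxolitinib, 1.24 ± 0.16 (adjusted p = 4.47e-05) on vehicle and 1.59 ± 0.17 (adjusted p = 2.18e-06) in young livers. Nle1 is among the lowest members per kilobase, and its exons overlap Fndc8 on the other strand. Rrp1, a nucleolar protein of early large subunit assembly (chr10:78400362-78413043, minus strand), had the smallest in all 3. Rrp1 ran at 57.5 to 86.8 CPM (median 71.2) in old Myc livers on ruxolitinib, against 56.99 to 72.3 CPM (median 67.2) in old mApple livers on ruxolitinib. On vehicle, Rrp1 was at 63.1 to 84.5 CPM (median 71.8) in old Myc livers, against 54.4 to 71.2 CPM (median 65.5) in old mApple livers. In young livers, Rrp1 was at 61.8 to 68.9 CPM (median 62.6) with Myc and ruxolitinib, against 47.3 to 63.5 CPM (median 61.2) with mApple and vehicle. The Myc and mApple ranges of Rrp1 overlapped in all 3 pairs, with log2 fold changes of 0.09 ± 0.06 (adjusted p = 0.315) on ruxolitinib, 0.12 ± 0.07 (adjusted p = 0.192) on vehicle and 0.10 ± 0.06 (adjusted p = 0.241) in young livers. Its paralog Rrp1b was called in all 3, at 0.70 ± 0.09, 0.64 ± 0.19 and 0.91 ± 0.09 in old ruxolitinib, old vehicle and young livers. The trimer of Pes1, Bop1 and Wdr12, which processes the large subunit RNA, was uneven in old vehicle livers, where Wdr12 and Pes1 were called at 0.78 ± 0.12 and 0.49 ± 0.07 and Bop1 was not, at 0.24 ± 0.10. In young livers all 3 were called, at 0.75 ± 0.10, 0.52 ± 0.07 and 0.46 ± 0.10. Ppan, Nop2 (an RNA methyltransferase), Mrto4, Grwd1 and Noc2l had log2 values of 0.95, 0.75, 0.74, 0.68 and 0.67 in old vehicle livers and 1.27, 1.10, 0.91, 0.87 and 0.66 in young livers, all called. The helicases Ddx18 and Ddx56 were called in all 3 comparisons with log2 values of 0.27 to 0.37, and Ddx27 was called in old ruxolitinib (0.27) and young livers (0.42). When 1 library was left out at a time, the Ddx56 call on ruxolitinib was lost in 15 of 23 fits, the Ddx27 call there in 7 of 23 and the Ddx18 call on vehicle in 6 of 19. Noc3l and Ebna1bp2 were called in all 3 at 0.45 and 0.46 in old vehicle livers. The last 3, Rrs1, Nop16 and Wdr74, were called in old vehicle livers at 0.37, 0.48 and 0.51 and missed the threshold on ruxolitinib.

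Among 94 other genes of the same pathway 42 were called higher and 0 lower in old vehicle livers, 41 higher and 2 lower in old ruxolitinib livers and 48 higher and 1 lower in young livers, with median log2 values of 0.25, 0.23 and 0.24. Taf1d, a subunit of the RNA polymerase I initiation factor, and Mybbp1a, a nucleolar Myb-binding protein, led in old livers, at 0.78 ± 0.14 and 0.70 ± 0.14 on vehicle and 0.89 ± 0.17 and 0.68 ± 0.09 on ruxolitinib. Mdn1, the giant ATPase that strips factors from the pre-large subunit, led in young livers at 1.06 ± 0.11. Nop9 was called lower on ruxolitinib in old livers (-0.33 ± 0.11) and in young livers (-0.32 ± 0.06), and Bccip in old livers on ruxolitinib (-0.24 ± 0.08).

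Markers of other features moved beside these results. Of 10 cell cycle genes 9 were higher in old Myc vehicle livers, 10 in old Myc ruxolitinib livers and 2 in young Myc livers. Their summed level was 59.3 to 474.5 CPM in old Myc ruxolitinib, 49.2 to 234 CPM in old Myc vehicle, 35.1 to 101.8 CPM in old mApple ruxolitinib and 34.9 to 59.9 CPM in old mApple vehicle livers, and no marker of the list was at 0 throughout a group. Of 9 hepatocyte genes 3 were lower on vehicle, 1 on ruxolitinib and 7 in young Myc livers, and of 6 sinusoidal endothelial genes 5 were lower on vehicle and 2 on ruxolitinib. Of 5 bile duct genes 1 was lower on ruxolitinib, and no macrophage, leukocyte or stellate gene was called in old livers. The part of these markers in the results was not tested. In the first batch alone 20 members were called on vehicle and 0 on ruxolitinib, where 0 genes of the whole table were called and 2171 had an unadjusted p under 0.05. In the second batch alone the counts were 29 and 35. Over all genes 732 of 13262 were called on vehicle in the first batch. In the second, 629 of 13504 were called on vehicle and 1484 of 13761 on ruxolitinib. The median log2 values within batches were 0.55 and 0.49 on vehicle, and 0.46 in the first batch on ruxolitinib.

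Ruxolitinib itself was compared within each vector in old livers, which asks whether the drug moves the members with or without Myc. In old Myc livers 0 of 51 members were called for ruxolitinib over vehicle (0.545% of all genes were), and in old mApple livers 0 of 51 (0.391%). The median log2 values of the members were -0.08 and -0.06, where those of all genes tested were 0.015 and 0.009. Estimates were above 0 for 10 of the 51 members with Myc and 13 with mApple. The direction of the members as a set was not tested. At an unadjusted p under 0.05 there were 3 members with Myc, all with negative estimates (Polr1c at -0.24 ± 0.11, Tsr1 at -0.20 ± 0.10 and Rrs1 at -0.20 ± 0.08), and 5 with mApple, of which Noc4l (-0.27 ± 0.11), Wdr75, Ddx21 and Wdr43 had negative estimates and Nhp2 a positive one (0.32 ± 0.13). Of all genes tested, 1925 of 13749 with Myc and 1327 of 13554 with mApple had an unadjusted p under 0.05. In old Myc ruxolitinib livers, the lowest values of Tsr1 and Polr1c were in libraries 860 and 861. Tsr1 was at 34.59 and 31.15 CPM there and Polr1c at 8.76 and 8.36 CPM. Both libraries stood apart in macrophage markers. The other tools run, DESeq2 and limma voom, called 0 in both comparisons as well. These counts do not show that the drug left the members as they were. For Npm1 the estimate was -0.08 ± 0.14 with Myc and -0.06 ± 0.09 with mApple, and for Polr1a it was 0.13 ± 0.11 and -0.06 ± 0.08. Among the 94 other pathway genes 0 were called with either vector. The difference of the drug effects between vectors had 1 member at an unadjusted p under 0.05, Nhp2, at -0.43 ± 0.21, and 735 of 14046 genes.

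Age was compared in the second batch, where both ages were sequenced. It held 10 old and 10 young Myc ruxolitinib livers, but 4 old and 6 young mApple vehicle livers. The numbers of libraries differ, so counts of calls cannot be set against each other between these 2 tests. In Myc livers on ruxolitinib 27 of the 51 members were lower in old than in young mice, where 15.6% of all genes were called lower, and 1, Rrp1, was higher, where 18.1% of all genes were. The median log2 value was -0.24. In mApple livers on vehicle 0 of 51 were called (1.1% of all genes), with a median of -0.03. There 0 members and 2337 of 13155 genes had an unadjusted p under 0.05. All 27 were among the 45 that were called higher in young Myc livers, a comparison that shares the young Myc libraries. No member had every old Myc library below every young one (1.0% of all genes did).

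Polr1b was the polymerase subunit called. Polr1b was at 24.1 to 39.3 CPM (median 31.5) in old and 34.9 to 41.96 CPM (median 37.5) in young Myc livers on ruxolitinib, a log2 difference of -0.29 ± 0.07. Both groups overlapped, as they did for every member. Of the abundant nucleolar proteins 4 of 5 were called. Nolc1 was at 19.9 to 49.8 CPM (median 32.3) in old and 38.7 to 60.96 CPM (median 52.6) in young Myc livers on ruxolitinib, a log2 difference of -0.66 ± 0.13. Ncl was at 238 to 362 CPM (median 264) in old and 314 to 420.1 CPM (median 342) in young Myc livers on ruxolitinib, a log2 difference of -0.34 ± 0.08. Ddx21 was at 54.6 to 85.7 CPM (median 67.6) in old and 72.3 to 94.5 CPM (median 88.03) in young Myc livers on ruxolitinib, a log2 difference of -0.33 ± 0.07. The Nolc1 difference was the largest of the 51. Gnl3 was at 25.03 to 52.9 CPM (median 39.7) in old and 42.4 to 64.4 CPM (median 50.4) in young Myc livers on ruxolitinib, a log2 difference of -0.38 ± 0.12. Of the snoRNP proteins Nop56, Dkc1 and Nop10 were called. Nop56 was at 17.4 to 44.7 CPM (median 31.3) in old and 36.3 to 48.1 CPM (median 41.05) in young Myc livers on ruxolitinib, a log2 difference of -0.37 ± 0.13. Dkc1 was at 21.4 to 34.4 CPM (median 27.2) in old and 28.7 to 47.3 CPM (median 36.5) in young Myc livers on ruxolitinib, a log2 difference of -0.47 ± 0.10. Nop10 was at 31.4 to 54.3 CPM (median 35.4) in old and 38.99 to 52.02 CPM (median 48.8) in young Myc livers on ruxolitinib, a log2 difference of -0.35 ± 0.08. The old medians were below the young minimum for Nop56, Dkc1 and Nop10.

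Among small subunit factors 9 of 15 were called lower in old mice. Rrp12 was at 8.22 to 20.1 CPM (median 11.1) in old and 13.96 to 19.8 CPM (median 16.9) in young Myc livers on ruxolitinib, a log2 difference of -0.47 ± 0.14. Wdr75 was at 12.9 to 19.4 CPM (median 14.2) in old and 17.1 to 22.3 CPM (median 19.1) in young Myc livers on ruxolitinib, a log2 difference of -0.33 ± 0.08. Noc4l was at 8.45 to 18.1 CPM (median 12.6) in old and 12.4 to 19.8 CPM (median 15.1) in young Myc livers on ruxolitinib, a log2 difference of -0.33 ± 0.10. Rrp12 had the largest difference of this role. Bysl was at 17.4 to 32.99 CPM (median 23.1) in old and 23.7 to 32.7 CPM (median 28.9) in young Myc livers on ruxolitinib, a log2 difference of -0.29 ± 0.10. Wdr43 was at 28.3 to 42.9 CPM (median 32.4) in old and 33.8 to 51.03 CPM (median 40.6) in young Myc livers on ruxolitinib, a log2 difference of -0.28 ± 0.08. Utp20 was at 16.6 to 26.04 CPM (median 21.7) in old and 21.4 to 31.5 CPM (median 25.9) in young Myc livers on ruxolitinib, a log2 difference of -0.27 ± 0.08. Utp20, Tsr1 and Noc4l were called here and in young livers, and in neither the vehicle nor the ruxolitinib comparison of Myc in old livers. Heatr1 was at 17.5 to 27.8 CPM (median 21.3) in old and 22.1 to 29.7 CPM (median 26.1) in young Myc livers on ruxolitinib, a log2 difference of -0.25 ± 0.08. Wdr36 was at 27.8 to 46.4 CPM (median 33.5) in old and 35.5 to 44.7 CPM (median 38.9) in young Myc livers on ruxolitinib, a log2 difference of -0.21 ± 0.07. Tsr1 was at 65.01 to 88.7 CPM (median 71.4) in old and 76.9 to 92.1 CPM (median 81.9) in young Myc livers on ruxolitinib, a log2 difference of -0.19 ± 0.05. Among large subunit factors 10 of 19 were called lower. Nop2 was at 17.7 to 36.3 CPM (median 23.6) in old and 29.6 to 36.4 CPM (median 33.8) in young Myc livers on ruxolitinib, a log2 difference of -0.46 ± 0.10. Bop1 was at 23.6 to 32.4 CPM (median 25) in old and 29.4 to 38.6 CPM (median 36.6) in young Myc livers on ruxolitinib, a log2 difference of -0.42 ± 0.06. Ppan was at 13.9 to 32.1 CPM (median 20.96) in old and 23.6 to 31.3 CPM (median 25.4) in young Myc livers on ruxolitinib, a log2 difference of -0.33 ± 0.12. Bop1 had the smallest adjusted p of the members, 4.41e-05. Rrp1b was at 8.01 to 11.8 CPM (median 10.04) in old and 10.6 to 14.4 CPM (median 12.6) in young Myc livers on ruxolitinib, a log2 difference of -0.33 ± 0.07. Noc3l was at 9.54 to 16.3 CPM (median 12.2) in old and 13.3 to 20.4 CPM (median 15.4) in young Myc livers on ruxolitinib, a log2 difference of -0.33 ± 0.09. Nop16 was at 19.1 to 31.9 CPM (median 27.4) in old and 27.5 to 38.2 CPM (median 32.2) in young Myc livers on ruxolitinib, a log2 difference of -0.31 ± 0.08. These 3 differed by about the same amount. Wdr12 was at 14.2 to 23.8 CPM (median 19.1) in old and 18.4 to 27.97 CPM (median 22.2) in young Myc livers on ruxolitinib, a log2 difference of -0.27 ± 0.09. Noc2l was at 37.1 to 55.96 CPM (median 44.6) in old and 45.9 to 60.9 CPM (median 54.8) in young Myc livers on ruxolitinib, a log2 difference of -0.25 ± 0.07. Ddx27 was at 21.1 to 32.2 CPM (median 27.8) in old and 27.7 to 38.1 CPM (median 30.97) in young Myc livers on ruxolitinib, a log2 difference of -0.24 ± 0.07. The last of the 10 was Ebna1bp2. Ebna1bp2 was at 21.3 to 31.4 CPM (median 26.04) in old and 27.3 to 33.9 CPM (median 30.9) in young Myc livers on ruxolitinib, a log2 difference of -0.20 ± 0.07. The 1 called higher was Rrp1. Rrp1 was at 57.5 to 86.8 CPM (median 71.2) in old and 61.8 to 68.9 CPM (median 62.6) in young Myc livers on ruxolitinib, a log2 difference of 0.17 ± 0.05.

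**Figure D4:**
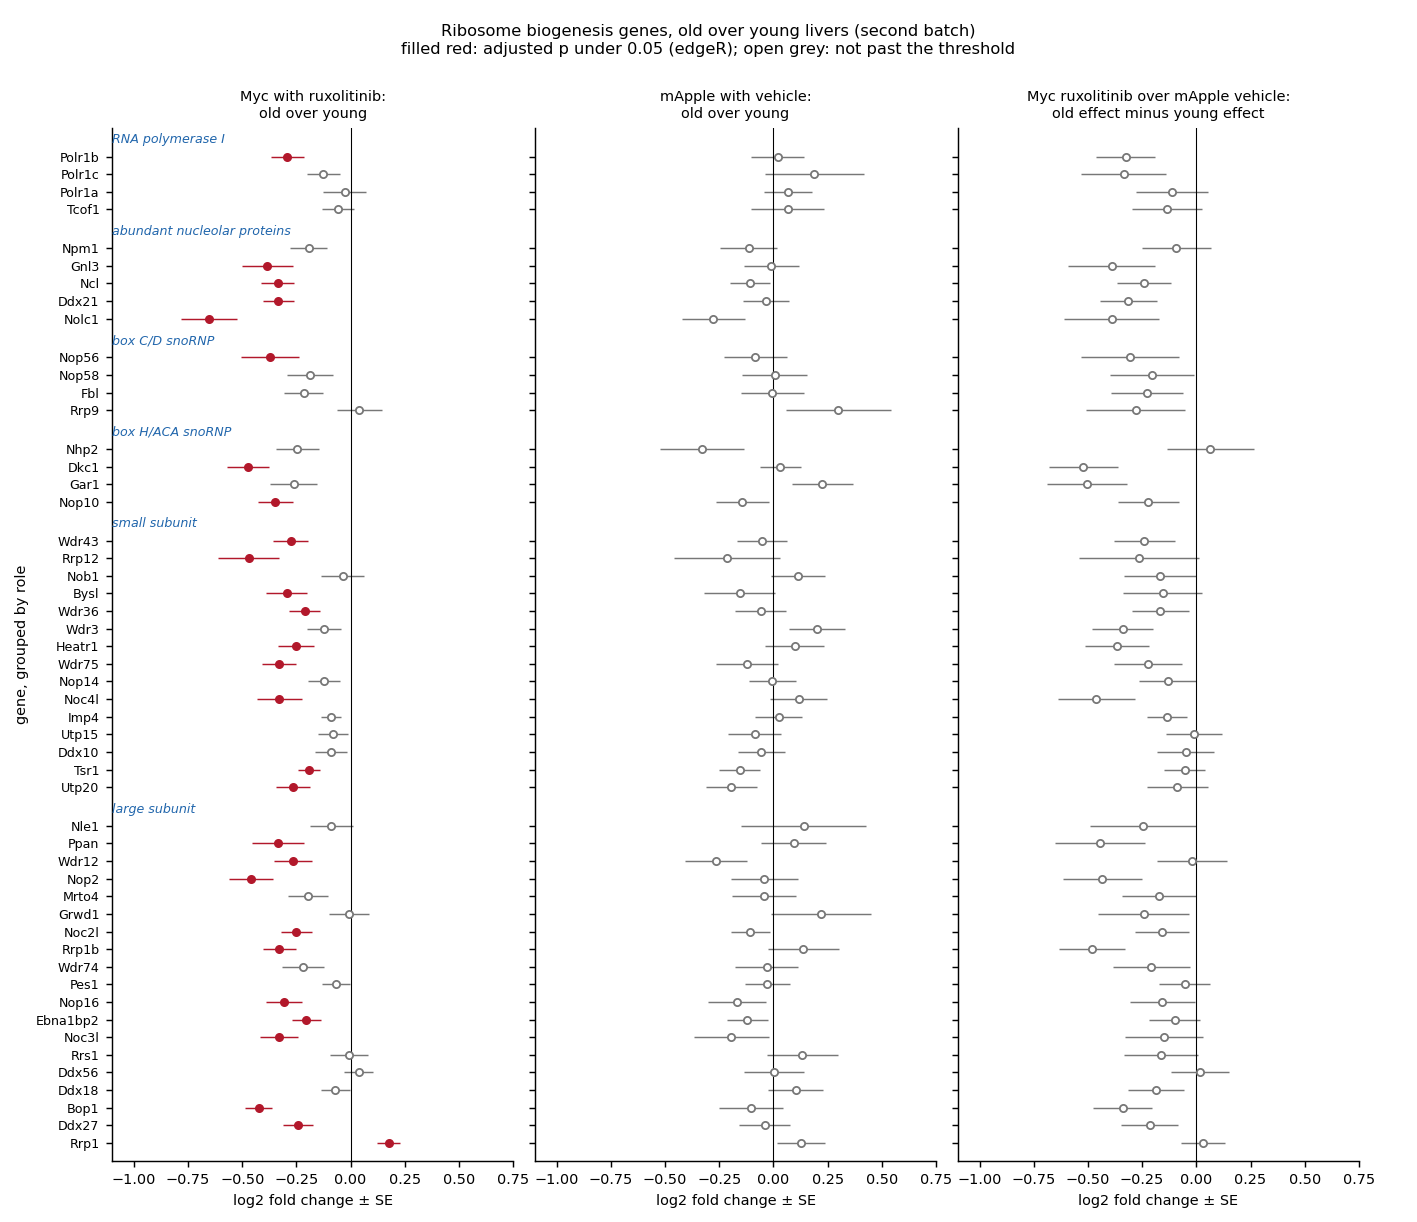
Log2 fold change ± SE (horizontal axes) of the 51 genes by role (vertical axis): old over young in Myc ruxolitinib livers, old over young in mApple vehicle livers, and the difference of the Myc ruxolitinib effect between the ages, all in the second batch. Filled red points passed the edgeR threshold, 28 in the first panel (27 left of 0) and none in the other 2.

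Myc itself was lower in the old Myc ruxolitinib livers of this batch, at 24.4 to 45.6 CPM (median 31.0), against 36.1 to 61.5 CPM (50.9) in young ones, a log2 difference of -0.69 ± 0.10 (adjusted p = 3.33e-05). In mApple vehicle livers its difference with age was -0.43 ± 0.51 (adjusted p = 0.692). With the Myc level of each library added as a term beside age, 0 of the 51 members were called, the median log2 value was -0.05, and 839 of 12759 genes were called in place of 4306. Of the members called without that term, 24 kept their direction and 4 changed sign. The 4 were Ncl, Gnl3, Wdr36 and Wdr43, with estimates of 0.01, 0.01, 0.02 and 0.02. Myc level and age go together in these libraries, so their parts cannot be told apart. Of the cell cycle genes 2 of 10 were higher and 0 lower in old mice. In the same comparison of Myc livers 3 of 6 sinusoidal endothelial genes and 1 of 6 stellate genes were lower, and 3 of 10 macrophage genes, 1 of 4 bile duct genes and 2 of the 3 leukocyte genes that passed the filter (12 listed) were higher. Of 9 hepatocyte genes 3 were higher and 2 lower. The sinusoidal endothelial genes summed to 77.3 to 218.3 CPM (median 154.1) in old and 140 to 267.4 CPM (median 212.9) in young Myc livers, and the leukocyte genes to 8.93 to 38.9 CPM (median 23.2) in old and 9.34 to 17.9 CPM (median 12.8) in young ones. The part of these markers was not tested.

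The effect of Myc with ruxolitinib over mApple with vehicle was also set between the ages. It rested on 10 and 4 livers in old mice and on 10 and 6 in young mice. In old livers of the second batch 26 of 51 members were called higher and 0 lower (6.52% of all genes were higher), with a median of 0.44. Beside them 6 of 10 cell cycle genes were higher, and 5 of 6 sinusoidal endothelial genes (median log2 value -0.81) and 1 of 9 hepatocyte genes were lower, and no macrophage, leukocyte, bile duct or stellate gene was called. The difference of this effect, old minus young, was called for 0 of 51 members (0.287% of all genes), with a median of -0.21 and 48 of 51 estimates below 0. At an unadjusted p under 0.05 there were 11 members and 1914 of 13609 genes. Of the marker genes 1 was called for this difference, a sinusoidal endothelial one, and the part of the markers in either result was not tested. DESeq2 called 0 members and limma voom 3, all negative. Over the whole table DESeq2 called 199 of 13609 genes and voom 597, of which 376 were negative. The most negative estimates were Dkc1 at -0.52 ± 0.16 (adjusted p = 0.121), Gar1 at -0.50 ± 0.18 (adjusted p = 0.209) and Rrp1b at -0.48 ± 0.15 (adjusted p = 0.141). Of the 94 other pathway genes 1 was called, Mdn1, at -0.78 ± 0.16, and in Myc ruxolitinib livers Mdn1 differed by -0.75 ± 0.07 between old and young mice. In that age comparison 31 of the 94 were lower and 6 higher.

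The members were then set against the Myc level of each library, as the slope of log2 expression per unit of log2(Myc CPM + 1) within a vector. In the 25 old Myc livers, with batch as a term, 15 of 51 members had a positive slope past the threshold and 0 a negative one (3.42% of all genes were positive), with a median slope of 0.17. The 15 were Rrp1b (0.39 ± 0.07), Ppan (0.39 ± 0.11), Npm1 (0.36 ± 0.07), Dkc1 (0.35 ± 0.08), Ncl (0.33 ± 0.05), Gnl3 (0.32 ± 0.09), Noc2l (0.29 ± 0.06), Noc3l (0.26 ± 0.07), Nop14 (0.26 ± 0.05), Noc4l (0.25 ± 0.07), Polr1a (0.24 ± 0.07), Wdr43 (0.24 ± 0.06), Wdr36 (0.20 ± 0.05), Imp4 (0.16 ± 0.04) and Pes1 (0.13 ± 0.04). They came from 5 of the 6 roles, and the box C/D snoRNP had none. Its median slope was 0.23, within the 0.12 to 0.32 of the other roles. Of its members 3 of 4 had an unadjusted p under 0.05, as had 2700 of 13427 genes, and its lowest adjusted p in edgeR was 0.068. The 15 calls rested on library 870: without it 0 members and 0 of 13469 genes were called, with a median slope of 0.20. In the first and second batch alone the counts were 0 and 0, with medians of 0.17 and 0.24. Without a batch term 28 were positive and 1 negative, where 1673 of 13427 genes were positive and 1627 negative.

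**Figure D5:**
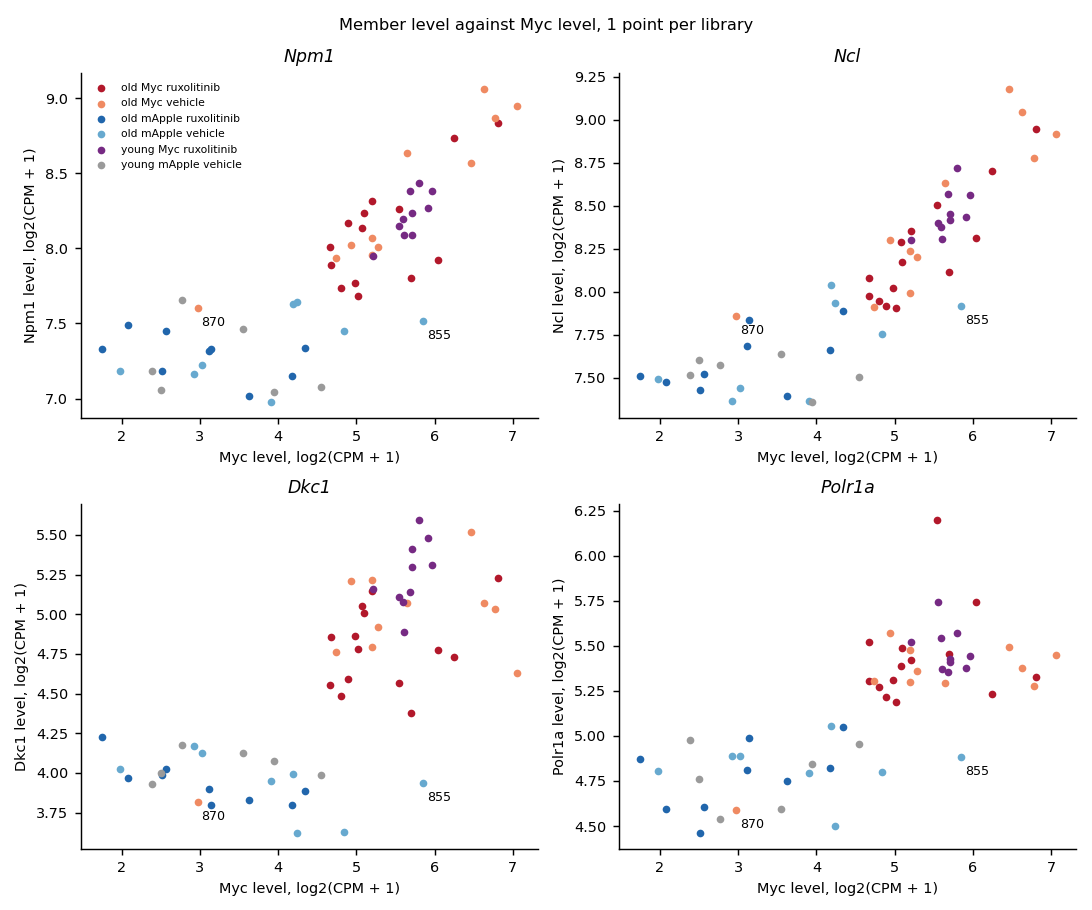
Level of Npm1, Ncl, Dkc1 and Polr1a (vertical axes, log2(CPM + 1)) against the Myc level (horizontal axes, log2(CPM + 1)) in each of the 58 libraries, coloured by group. Libraries 870 and 855 are named: 870, labelled Myc with 6.85 CPM of Myc, lies among the mApple libraries, and 855, labelled mApple with 56.8 CPM of Myc, does not lie with the Myc libraries of like Myc level.

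In the 17 old mApple livers 0 of 51 slopes were called (0.0% of all genes), with a median of 0.02, 2 members at an unadjusted p under 0.05 (Rrp1b and Tcof1) and 1092 of 13323 genes. DESeq2 called 22 genes there. Library 855 has the highest Myc level of these livers: without it 5 of 13479 genes were called, without it and 863 135 of 13604, and in the second batch alone 886 of 13380, with 0 members called in each and median slopes of 0.05, 0.05 and 0.02. In the 10 young Myc livers, where Myc spanned 36.1 to 61.5 CPM, 0 of 51 were called (0.059% of all genes), with a median slope of 0.09 and 3 members at an unadjusted p under 0.05, Nhp2 (0.69 ± 0.28), Npm1 (0.55 ± 0.18) and Gnl3 (0.51 ± 0.22). Of all genes, 1219 of 11863 had an unadjusted p under 0.05 in young Myc livers. The slopes were not tested between vectors.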

How the data were processed

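Per the labels' protocols, polyA RNA of whole liver was sequenced as 2x75 bp reads. Per the submitters' processing notes, STAR and HOMER were used with GRCm38 (mm10), versions not given in the sources used here. The authors deposited raw counts, per the file header, from HOMER over exons with 1 transcript per symbol and no strand setting. The deposited values come in steps of 0.5 and 29.9% are not whole, for a reason not given in the sources used here, so they were handled like estimated counts and rounded. Each comparison was fitted in edgeR 4.0.16 (R 4.3.3) by quasi-likelihood on its own groups, with TMM scaling, filterByExpr (minimum count 10) and sequencing batch as a covariate for groups spanning both, and all 51 members passed the filter in every comparison. P-values are two-sided and adjusted over all genes tested, threshold 0.05. Slopes used log2(CPM + 1) of Myc, with Myc left out of the test. DESeq2 1.42.0 and limma 3.58.1 (voom), other scalings, filters, batch settings and left-out libraries were alternatives. The functions were tested on simulated data. Figures used matplotlib 3.10.9.

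The members and lists were chosen with earlier results of these data known. The rule for values of single groups gave 35 members: Ncl, Npm1, Fbl, Polr1a, the largest and smallest difference of each role in old vehicle livers, and members called in opposite directions. For the 20 added by the last clause alone, the values of the age comparison are given. Nothing in the labels says more of how the livers were sampled than 1 library each, so p-values measure the spread between these libraries. Exons of 16 members overlap another gene, 15 of them one on the opposite strand, and reads of such pairs cannot be told apart. Counts limit precision as far as the standard errors show.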

Additional observations from a re-analysis of the deposited data

Results flagged for a closer look

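Within a group of 6 to 10 libraries, a value was picked out where its gap to the nearest library was above Dixon's 95% critical share of the group's range. Chance alone picks out about 1 in 20 groups, and 15 of the 140 groups tested here were picked out. Of these, 8 were the highest old mApple ruxolitinib value, in library 865: Nolc1 at 60.5 CPM, Bysl at 31.1 CPM, Rrp12 at 15.3 CPM, Nop2 at 29.4 CPM, Ddx27 at 37.4 CPM, Rrp1b at 11.1 CPM, Noc2l at 50.4 CPM and Ppan at 27.7 CPM. Their nearest libraries were at 33.4, 21.3, 9.25, 19.1, 28.2, 8.13, 39.2 and 17.6 CPM in the same order. Library 865 also had stellate markers at 1058 CPM, against a group median of 383 CPM. Polr1a was highest in library 1127 (young Myc ruxolitinib) at 52.6 CPM, with the nearest library at 46.6 CPM. Nhp2 was lowest in library 1134 (young mApple vehicle) at 5.999 CPM, with the nearest library at 11.3 CPM. Nop10 was lowest in library 1124 (young Myc ruxolitinib) at 38.99 CPM, with the nearest library at 46.2 CPM. Rrp1 was lowest in library 1134 (young mApple vehicle) at 47.3 CPM, with the nearest library at 58.97 CPM. Dkc1 was highest in library 1139 (old mApple ruxolitinib) at 17.7 CPM, with the nearest library at 15.3 CPM. Tsr1 was lowest in library 864 (old mApple ruxolitinib) at 34.9 CPM, with the nearest library at 54.1 CPM. Nop2 was highest in library 854 (old mApple vehicle) at 29.8 CPM, with the nearest library at 20.6 CPM. The counts of members called in young livers were 46 without library 1134 and 45 without library 1129. Over all genes 3783 of 12883 and 3789 of 12868 were called in these fits.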

How the results depend on the processing

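Counts of called members stayed within 1.5 times of those reported under the alternatives run except as follows. Myc in old vehicle livers had 20 members called in the first batch alone (732 of 13262 genes), and Myc in old ruxolitinib livers 0 (0 of 13566 genes). Myc with ruxolitinib in old livers had 41 in a single fit of all 58 libraries, where 3349 of 14024 genes were called. With voom, age in mApple livers had 2 (1640 of 13155 genes) and the difference by age 3 (597 of 13609 genes). The slope in old Myc livers had 29 calls without a batch term and 0 in the first batch, in the second batch, without library 870 and without the 2 libraries farthest from the median Myc level, where no gene of the table was called either. The slope in old mApple livers had 18 without a batch term. In these fits without batch 3300 of 13427 genes were called in old Myc livers and 4565 of 13323 in old mApple livers. In the second batch the slopes of Imp4 and Noc4l in old Myc livers were -0.084 and -0.004. Age in Myc livers had 0 calls with Myc as a term, a setting chosen after seeing the data. So were those without libraries 870 and 855 together, 1129 or 1134, and the mApple slope without library 855. With Myc as a term the sign changed for Ncl, Gnl3, Wdr36 and Wdr43, at 0.007, 0.010, 0.023 and 0.017. The other 24 called members kept their direction. The cause was not tested. Leaving out 1 library at a time, Myc in old vehicle livers had 34 (without 1137) to 41 (without 870) calls, Myc in old ruxolitinib livers 33 (without 1143) to 43 (without 1157), and both ruxolitinib comparisons 0. Of the 36 and 41 calls, 34 and 33 held each time. On vehicle Noc3l was lost without 1137, 1138 or 863, and Ddx18 without 1137, 1146, 1147, 855, 862 or 871. On ruxolitinib Heatr1 and Bysl were lost without 1143, Polr1c without 1139, 1141 or 1143, Tcof1 without 1143, 856 or 857, Nolc1 without 1141, 1143, 856 or 868, and Ddx27 without 1141, 1143, 856, 857, 860, 864 or 868, while Ddx10 and Ddx56 were lost in 14 and 15 of the 23 fits. Over all called members and alternatives 1357 of 1549 values kept direction and call and 186 kept direction and lost the call, 158 of these in a batch alone, in a slope or with Myc as a term.

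No paired analysis was possible because the labels name each library by its own number, and nothing in them pairs a library of 1 group with one of another. Standard errors of about 0.1 on the log2 scale limit what these libraries can show, and a member that missed the threshold is not shown to be alike between groups.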
